A study of Mus musculus with 30 samples.

Results

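The 10 genes described here carry out the presentation of peptides by major histocompatibility complex (MHC) class I molecules, and were measured in skeletal muscle of 14 mice kept on a fixed light-dark cycle (LD) and 16 mice whose cycle was advanced by 8 h every 4 days (ADV). They were chosen by name, as the 2 classical heavy chains of the C57BL/6J mouse (H2-K1 and H2-D1), their light chain (B2m), the peptide transporter and loading factor (Tap1, Tap2 and Tapbp), the class I transactivator (Nlrc5) and the 3 catalytic subunits of the immunoproteasome (Psmb8, Psmb9 and Psmb10). Each symbol stood on 1 row of tables that hold 56951 symbols, and 9 of the 10 were among the 12030 genes tested. Nlrc5 had a mean of 79.7 reads but a mean of 0.434 FPKM (reads scaled by exon length and by library size), under the limit of 0.5 FPKM, and was tested only in a fit without that limit. All mice were wild-type C57BL/6J males, housed singly with a running wheel, and were sampled after 64 weeks on their schedule. The lights of the LD mice were on from 8:00 to 20:00. Per the paper, tissue was taken in the light period, when the ADV mice had the same light hours. The gastrocnemius and plantaris were taken as one piece, and the hour at which each mouse was sampled is not given. Poly(A)-enriched RNA was sequenced from 1 library per mouse, with 18875468.5 to 28512674 reads counted on exons. The tissue was rich in muscle fiber transcripts, led by fast troponin T (Tnnt3, mean 19616 FPKM), and no gene of any cell type marker list was at 0 in every library.

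Nearly every nucleated cell shows on its surface short peptides cut from its own proteins, held by a heavy chain paired with beta-2-microglobulin, and cytotoxic T cells read them. The peptides are cut by the proteasome, pumped into the endoplasmic reticulum by TAP, a pump of 2 different chains, and fitted to the heavy chain by tapasin. Nlrc5 switches on several genes of the set. Interferon gamma raises the genes of the set and replaces the catalytic subunits of the ordinary proteasome by those of the immunoproteasome. Resting muscle fibers are known for low class I levels, which rise in inflamed muscle, whereas leukocytes and endothelial cells carry high levels.

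Of the 10 genes, 7 lie in the MHC region of chromosome 17 (GRCm39). In order they are Tapbp (chr17:34138306-34148266), H2-K1 (chr17:34214991-34219263, minus strand), Psmb9 (chr17:34400961-34406738, minus strand), Tap1 (chr17:34406527-34416199), Psmb8 (chr17:34416764-34420428), Tap2 (chr17:34422501-34435295) and H2-D1 (chr17:35481706-35486475). Psmb9 and Tap1 start head to head and their transcripts overlap by 212 bases, Psmb8 begins 564 bases after Tap1, and Tap2 2072 bases after Psmb8, whereas H2-D1 is 1046410 bases further on. B2m lies alone on chromosome 2 (chr2:121978167-121983564), and Nlrc5 (chr8:95161019-95253900) and Psmb10 (chr8:106662371-106665076, minus strand) are far apart on chromosome 8.

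The 3 genes of the class I molecule share short runs of letters at a fixed spacing before their start. They are shown here because the levels of these genes were the most alike of any pairs described below. In the RefSeq promoter table (GRCm38.p6), which held 8 of the 10 genes and not Tap2 or Nlrc5, each of the 3 had the letters TGACG, the core of the X2 box of MHC promoters, and the reverse complement of CCAAT, the core of the Y box, starting 25 bases after the first of these letters. The capitals mark these letters in the 30-base blocks, which lie 41 to 12 bases before the start of H2-K1 (chr17:34000359-34000388, minus strand), 101 to 72 bases before that of H2-D1 (chr17:35262993-35263022, plus strand) and 78 to 49 bases before that of B2m (chr2:122147609-122147638, plus strand). H2-K1 had 2 windows in that table, and its distances are from the start farthest upstream.
H2-K1: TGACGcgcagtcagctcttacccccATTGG
H2-D1: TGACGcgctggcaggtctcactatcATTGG
B2m: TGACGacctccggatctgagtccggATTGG
The blocks of H2-K1 and H2-D1 were identical at 23 of 30 positions (76.7%), and those of B2m and H2-K1 at 13 of 30 (43.3%). All 3 blocks agreed at 11 positions. These counts include the letters in capitals, which match in all 3 because the blocks were cut by them, so the identity of B2m with H2-K1 lies mostly there. Searched on both strands of all 32851 windows of 250 bases before a start, TGACG alone stood in 17.8% and CCAAT alone in 33.8%, and the pair with this spacing and orientation in 30 windows (0.0913%). Among 8971 tested genes with a window, 19 had the spaced pair, with H2-M3, a class I gene outside the 10, among them. The spacing was read off these 3 genes, so their share of such windows is a description.

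By the starts of the RefSeq table, Tap1 and Psmb9 are transcribed in opposite directions from a common stretch. The window of 200 bases before the start of Tap1 (chr17:34187356-34187555, plus strand, GRCm38.p6) is shown because it lies before the starts of both genes in that table, with TGACG in capitals 86 bases before the Tap1 start and, on the other strand, 144 bases before the Psmb9 start.
Tap1 and Psmb9: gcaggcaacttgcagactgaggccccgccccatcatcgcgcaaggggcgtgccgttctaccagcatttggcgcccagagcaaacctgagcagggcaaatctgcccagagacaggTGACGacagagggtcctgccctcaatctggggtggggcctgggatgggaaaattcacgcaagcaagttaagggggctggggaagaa
The transcripts that were counted overlap head to head and are given in another build, and where the window lies in them was not determined. A CCAAT stood 222 bases before the Tap1 start, outside the stretch shown. The window of Psmb8 (chr17:34197995-34198194, plus strand) held TTCNNNGAA, the letters of the gamma-activated site, here in capitals 97 bases before the start, which 7.02% of all windows also held.
Psmb8: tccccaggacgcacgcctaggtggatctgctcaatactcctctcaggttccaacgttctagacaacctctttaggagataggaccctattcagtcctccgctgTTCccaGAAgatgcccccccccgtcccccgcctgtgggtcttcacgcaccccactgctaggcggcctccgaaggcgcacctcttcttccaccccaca
GAAANNGAA, a form of the letters read by interferon regulatory factors, stood 139 bases before the start of B2m and in 7.13% of all windows. In this spelling it stood in no other window of the set, and other spellings were not searched. A window of H2-K1 and that of H2-D1 both held tttcacttc, on the other strand a similar run that this spelling misses. Its share of all windows was not counted, so a lack of such letters before the heavy chains cannot be read from this search. The window of Tapbp held CCAAT 165 and 248 bases before the start, and that of Psmb10 held none of the 4 motifs. These matches are letters in a window, and none was tested as a binding site.

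LD 33 and ADV 35 were each the highest of all mice in 4 of the 10 genes and more than 1 SD above the mean of the 30 mice in 9 and 7 of them, and results that rest on them are given with and without them. The first question was whether 64 weeks of repeated advances changed the level of these genes. It was addressed with edgeR's quasi-likelihood test over 12030 genes with Benjamini-Hochberg adjustment, in which 10.8% of all tested genes (1301) passed an FDR of 0.05. None of the 9 tested genes of the set passed, and 1, Psmb10, had an unadjusted p under 0.05. DESeq2 and the Wilcoxon rank-sum test on FPKM also called 0 of the 9. The median log2 fold change (ADV over LD) of the 9 was -0.03, beside 0.00 over all tested genes, with 2 genes higher and 7 lower, but the sign of H2-K1, H2-D1, B2m, Tap1, Tap2, Tapbp and Psmb9 turned under at least 1 alternative processing.

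The heavy chains and the light chain were by far the most abundant. H2-K1 had 29.4 to 69.3 FPKM in LD mice (median 48.0) and 35.1 to 58.4 FPKM in ADV mice (median 43.4), so that the ADV values lay inside the LD range. Its log2 fold change was -0.08 (SE 0.09, edgeR FDR 0.619, 95% confidence interval -0.27 to 0.11). H2-D1 had 31.2 to 73.0 FPKM in LD mice (median 44.2) and 33.5 to 61.9 FPKM in ADV mice (median 43.6). The groups overlapped over the whole ADV range, and the log2 fold change was 0.00 (SE 0.10, edgeR FDR 0.984, 95% confidence interval -0.20 to 0.21). B2m had 73.0 to 139 FPKM in LD mice (median 98.2) and 73.7 to 136 FPKM in ADV mice (median 92.6), again with full overlap. Its log2 fold change was -0.03 (SE 0.09, edgeR FDR 0.834, 95% confidence interval -0.22 to 0.15). For each of the 3 genes LD 29 was the lowest and LD 33 the highest of the LD mice, and ADV 24 was the highest of the ADV mice. Per kilobase, H2-K1 was at 46.8% ± 2.96 of B2m in LD mice and 45.9% ± 2.93 in ADV mice (SD, n = 14 and 16), while H2-D1 was at 97.5% ± 5.36 of H2-K1 in LD mice and 103% ± 6.53 in ADV mice. The last difference had a two-sided permutation p of 0.0140, or 0.0838 after adjustment over the 6 ratios compared in all.

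**Figure D1:**
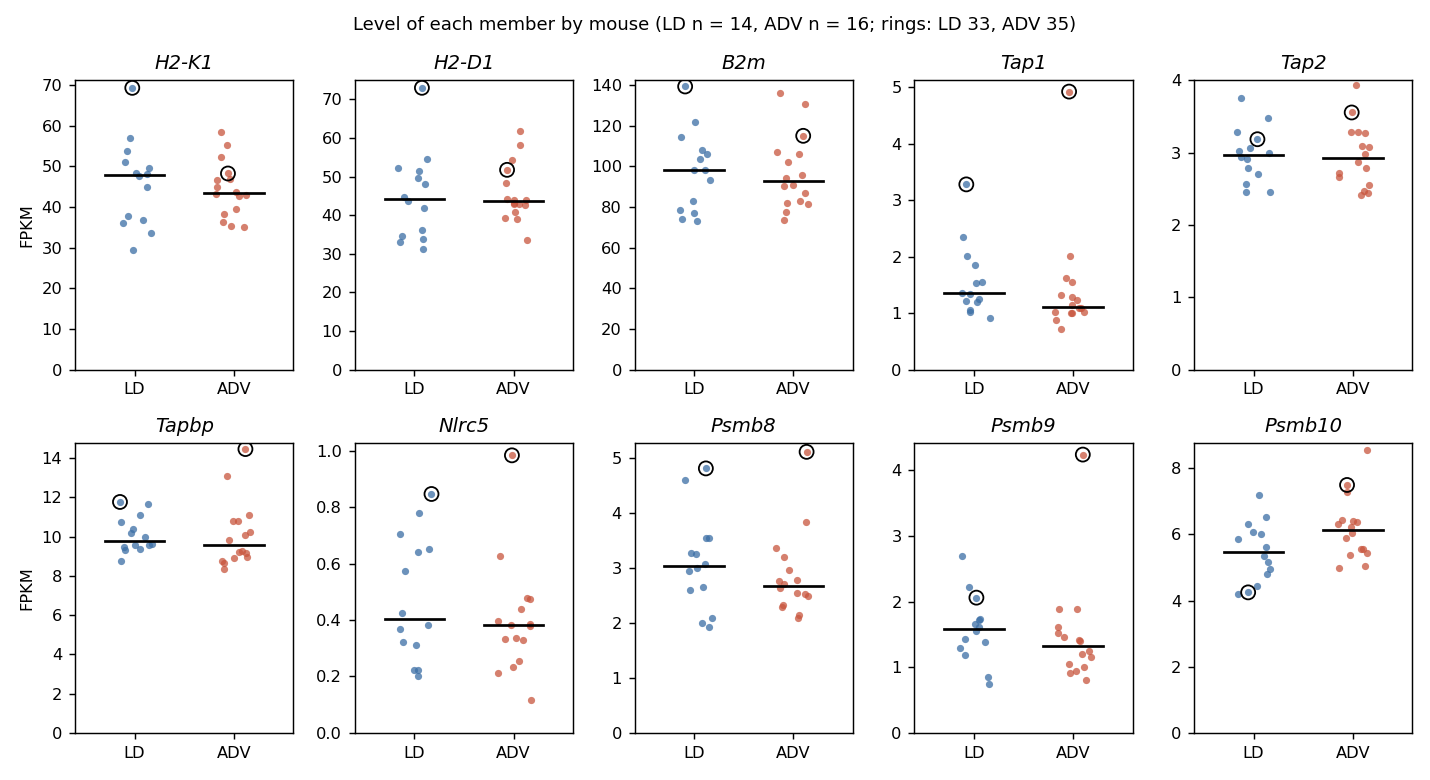
FPKM of each of the 10 genes in every mouse, by group, with a line at the group median and rings around LD 33 and ADV 35. LD and ADV points overlap in every panel. LD 33 is at or near the top of its group in most panels but among the lowest in Psmb10. ADV 35 is at or near the top of its group in most panels, but less so in H2-K1 and H2-D1.

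The genes of the transporter and of peptide loading were expressed at a small fraction of the chains. Tap1, the first chain of the pump, had 0.908 to 3.28 FPKM in LD mice (median 1.35) and 0.720 to 4.92 FPKM in ADV mice (median 1.11), with both maxima in single mice, LD 33 and ADV 35. Its log2 fold change was -0.15 (SE 0.22, edgeR FDR 0.676, 95% confidence interval -0.61 to 0.30), and with each mouse left out it ran from -0.41 without ADV 35 (FDR 0.0895) to -0.011 without LD 33 (FDR 0.980). Tap2, the second chain, was steadier, with 2.45 to 3.75 FPKM in LD mice (median 2.97) and 2.42 to 3.93 FPKM in ADV mice (median 2.93). The ranges nearly coincided, and the log2 fold change was -0.02 (SE 0.07, edgeR FDR 0.846, 95% confidence interval -0.16 to 0.11). Tapbp, which encodes tapasin, had 8.74 to 11.8 FPKM in LD mice (median 9.79) and 8.37 to 14.5 FPKM in ADV mice (median 9.56). ADV 35 was above every LD mouse, yet the log2 fold change over all mice was -0.02 (SE 0.06, edgeR FDR 0.859). Tap1 stood at 52.3% ± 18.8 of Tap2 in LD mice and 47.0% ± 25.8 in ADV mice, and reached 138% in ADV 35.

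Nlrc5, which has no DNA-binding domain of its own and acts through factors on the X and Y boxes, was the gene with the lowest level. It had 0.200 to 0.847 FPKM in LD mice (median 0.404) and 0.115 to 0.984 FPKM in ADV mice (median 0.381). The highest mice were again LD 33 and ADV 35, and the groups overlapped. In the fit without the FPKM limit its log2 fold change was -0.29 (SE 0.22, edgeR FDR 0.491, 95% confidence interval -0.74 to 0.17).

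The 3 immunoproteasome subunits had estimates of either sign. Psmb8, which takes the place of Psmb5, had 1.92 to 4.81 FPKM in LD mice (median 3.03) and 2.09 to 5.11 FPKM in ADV mice (median 2.67), and its log2 fold change was -0.13 (SE 0.13, edgeR FDR 0.516). Psmb9, which takes the place of Psmb6, had 0.738 to 2.7 FPKM in LD mice (median 1.58) and 0.808 to 4.24 FPKM in ADV mice (median 1.32), with ADV 35 far above the rest, and its log2 fold change was -0.12 (SE 0.19, edgeR FDR 0.722). Both had lower medians in ADV mice with overlapping ranges, and the estimates hung on single mice. With each mouse left out the log2 fold change of Psmb8 ran from -0.21 without ADV 35 (FDR 0.224) to -0.058 without LD 33 (FDR 0.791), and that of Psmb9 from -0.31 without ADV 35 (FDR 0.158) to -0.039 without LD 31 (FDR 0.916). Psmb10, which takes the place of Psmb7, had 4.2 to 7.19 FPKM in LD mice (median 5.47) and 4.99 to 8.55 FPKM in ADV mice (median 6.14). It was the gene of the set with the strongest upward estimate, with 12 of 16 ADV mice above the LD median and a log2 fold change of 0.16 (SE 0.07, 95% confidence interval 0.01 to 0.31). Its unadjusted edgeR p was 0.0397 and its FDR 0.145, so it did not pass.

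**Figure D2:**
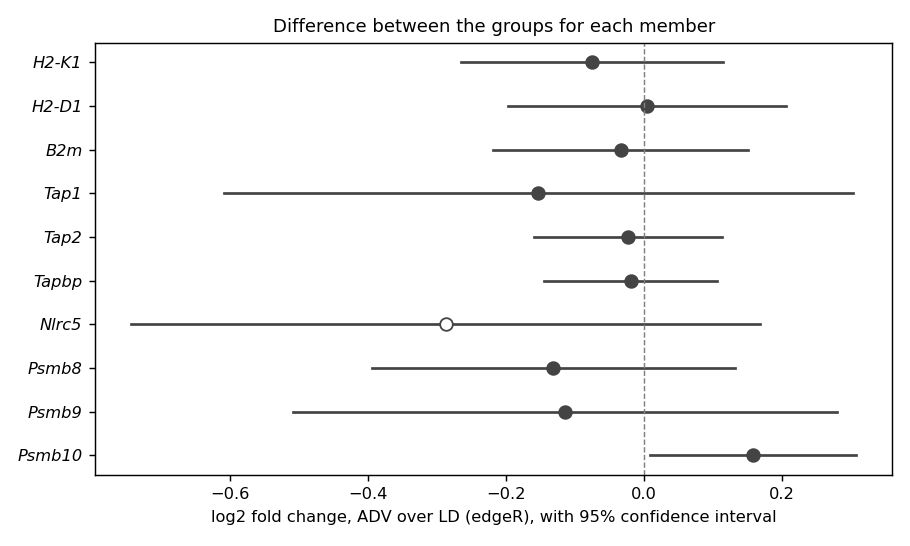
Log2 fold change (ADV over LD) of each gene with its 95% confidence interval from edgeR, and a dashed line at no change. The open symbol is Nlrc5, taken from the fit without the FPKM limit, and the interval of Psmb10 is the one that does not cross the line, although its FDR was 0.145.

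The constitutive subunits were measured beside them. Psmb5 rose from 79.3 ± 4.18 FPKM in LD mice to 91.5 ± 9.29 FPKM in ADV mice (SD, n = 14 and 16), a log2 fold change of 0.19 (SE 0.04, edgeR FDR 0.0073). Psmb6 and Psmb7 had log2 fold changes of 0.14 and 0.06 with FDRs of 0.0544 and 0.244. Psmb8 was at 3.91% ± 1.14 of Psmb5 in LD mice and 3.15% ± 0.874 in ADV mice (two-sided permutation p 0.0388, adjusted over the 6 ratios 0.116). Psmb9 was at 1.36% of Psmb6 in LD mice and 1.17% in ADV mice, and Psmb10 at 4.35% and 4.68% of Psmb7, with adjusted p of 0.332 for both by permutation. The transcripts of the immunoproteasome subunits were present at a few percent of their counterparts in this tissue.

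The wider pathway was read from 6 lists, in which 2 of 60 tested genes passed at an FDR of 0.05 (edgeR), beside 10.8% of all genes. Of 8 genes of peptide loading and trimming, 1 fell, Erap1, the aminopeptidase that trims peptides in the endoplasmic reticulum, from 3.55 ± 0.280 to 3.17 ± 0.319 FPKM (log2 fold change -0.18, SE 0.05, edgeR FDR 0.0132). Calr, the chaperone calreticulin, had a log2 fold change of -0.01 (FDR 0.882). Erap1 did not pass under a GC content correction (log2 fold change -0.08, FDR 0.138), nor with a replicate block on 28 libraries (FDR 0.0863, beside 0.0352 without the block on the same libraries). Under the clock gene covariate neither Erap1 (FDR 0.382) nor Psmb5 (FDR 0.371) passed, but there 0 of all 12030 tested genes passed, so this is not particular to them. Of 11 tested among 15 other class I genes, 0 passed, with H2-T23 at 0.02 (FDR 0.942). Of 5 genes of the proteasome activator and assembly, 0 passed, with the activator genes Psme1 and Psme2 at 0.00 and 0.06 (FDRs 0.979 and 0.489). Of the 3 constitutive subunits, Psmb5 passed. Of 14 tested among 15 regulators, 0 passed, with the interferon-responsive factor Irf1 at -0.18 (FDR 0.212). Of 19 tested among 23 other interferon-induced genes, 0 passed, with a median log2 fold change of -0.12 and 13 lower in ADV mice. This 0 did not hold throughout. Without ADV 35 Gbp7 and Iigp1 passed, beside 1336 of all 12030 genes. With DESeq2 Iigp1 passed, beside 1679 of all genes.

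The second question was how the genes varied between single mice. Nlrc5, Tap1, Psmb9 and Psmb8 were among the more variable genes of the muscle. Their standard deviations within groups, on the log2 scale of CPM (counts scaled to a common library size, not corrected for length), were 0.67, 0.57, 0.52 and 0.36, larger than those of 98.0%, 96.7%, 95.3% and 85.4% of tested genes, where the median was 0.19. The chains had 0.26 to 0.28, and Tapbp, Tap2 and Psmb10 0.17 to 0.20. From the lowest to the highest mouse CPM spanned 7.88-fold for Nlrc5, 6.29-fold for Tap1 and 5.53-fold for Psmb9, but 1.56-fold for Tap2. Nlrc5 and Psmb9 also had few reads, means of 79.7 and 50.5, so that counting error is a larger part of their spread than of that of B2m with 2026.

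A few mice carried much of this variation. LD 33 was more than 1 SD above the mean of the 30 mice in 9 of the 10 genes and the highest of all in 4, yet 1.75 SD below it in Psmb10. ADV 35 was more than 1 SD above the mean in 7 genes and the highest in 4, at 3.20 SD in Tap1, 3.09 SD in Tapbp, 2.99 SD in Psmb9 and 1.93 SD in Nlrc5, while its chains were less than 1 SD above. LD 31 was more than 1 SD above in 8 genes. At the other end, LD 32 was more than 1 SD below the mean in 8 genes, and LD 29 and LD 35 in 6 each. ADV 24 split the set, with its chains 1.17 to 1.64 SD above the mean and Psmb8 and Psmb9 0.83 and 0.74 SD below it.

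**Figure D3:**
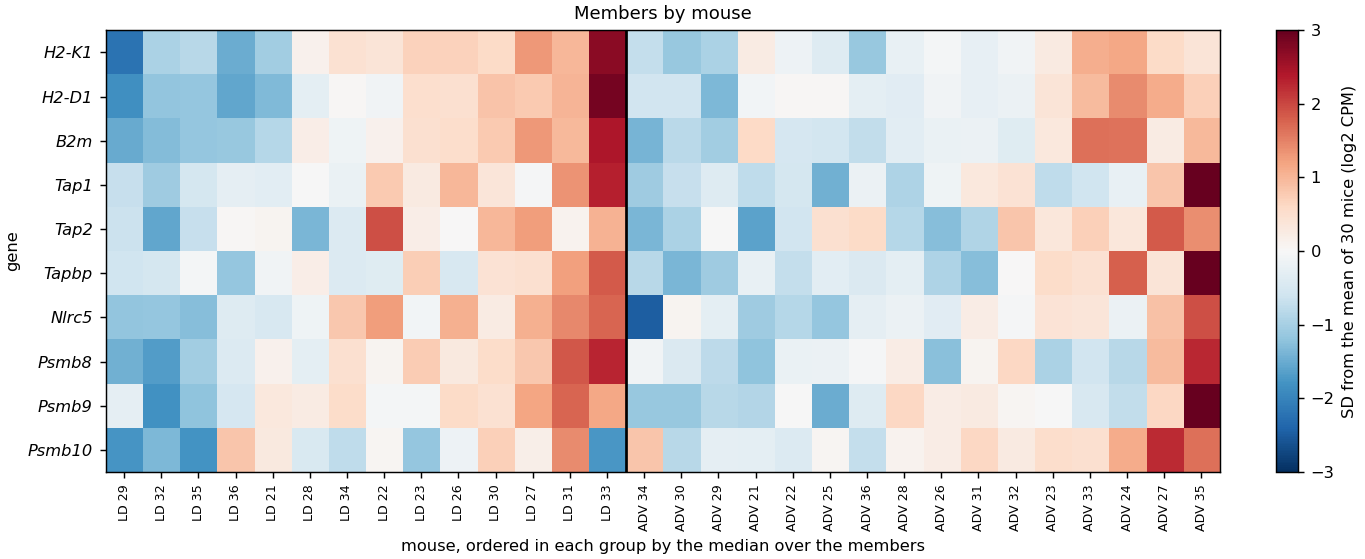
Level of each gene in every mouse as standard deviations from the mean of the 30 mice (log2 CPM), with mice ordered within each group by their median over the 10 genes. LD 33 and ADV 35 close their groups in dark red, and the low end of the LD group is blue in nearly all genes.

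Levels rose and fell together between mice. With group means removed, all 45 pairs had a positive Pearson r over the 30 mice, from 0.273 to 0.953 with a median of 0.588, and Spearman's rho had a median of 0.567. P-values came from 100000 permutations of the mice within their group and were adjusted over all tested genes with each member. After that adjustment 16 of the 45 pairs were under 0.05, and the larger of the values from both genes of a pair is given. Pairs with Nlrc5 are the exception. Nlrc5 was not among the tested genes, so only the value adjusted from its own side exists for them. This is the less strict rule, and 7 of the 16 pairs passed by it. For each gene the share of all tested genes that passed in the same way was 1.65% for H2-K1, 2.59% for H2-D1, 2.02% for B2m, 0.183% for Tap1, 0% for Tap2, 0.640% for Tapbp, 0.490% for Nlrc5, 0.0499% for Psmb8, 0.266% for Psmb9 and 0% for Psmb10. Within the groups the median r was 0.715 in LD mice and 0.540 in ADV mice. Without LD 33 and ADV 35 the median r over all pairs was 0.536 and the number passing was 8, all among the 16.

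The chains formed the tightest group. H2-K1 and H2-D1 had an r of 0.953 (rho 0.948, adjusted permutation p 0.00415), 0.975 within LD mice and 0.888 within ADV mice. B2m had an r of 0.939 with H2-K1 (rho 0.937, adjusted permutation p 0.00573) and 0.922 with H2-D1 (rho 0.901, adjusted permutation p 0.00573). Leaving out the pair of mice farthest from the median left r at 0.933, 0.929 and 0.894, and H2-D1 and B2m, or H2-K1 and B2m, lie on different chromosomes. Of all tested genes, the other 2 chains were the nearest to each chain. At the read length of 101 bases, 0 of 1528 windows of the H2-K1 transcript and 4.56% of those of H2-D1 also occurred in another gene, for H2-D1 mostly in H2-Q1. Tapbp followed the chains, with r of 0.737 with B2m, 0.708 with H2-D1 and 0.658 with H2-K1 (adjusted permutation p 0.0109, 0.010 and 0.0109). These 6 pairs also passed without LD 33 and ADV 35.

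Tap1, Psmb8 and Psmb9 formed another group around Nlrc5. By the adjustment from its own side alone, Nlrc5 passed with 7 of the 9 other genes over all mice. It had r of 0.795 with Tap1 (rho 0.757, adjusted permutation p 0.00708), 0.781 with Psmb9 (rho 0.743, adjusted permutation p 0.00708) and 0.708 with both Psmb8 and B2m (adjusted permutation p 0.0139). Its remaining passing pairs were with H2-D1 (r 0.673), H2-K1 (r 0.665) and Tap2 (r 0.655), although adjusted from the side of Tap2 0 of 12029 genes passed. Tap1 had an r of 0.811 with Psmb9 (rho 0.682, adjusted permutation p 0.0172) and 0.801 with Psmb8 (rho 0.653, adjusted permutation p 0.0241), and Psmb8 and Psmb9 had 0.793 (rho 0.743, adjusted permutation p 0.0241). Without LD 33 and ADV 35 Nlrc5 passed, again from its own side alone, with 2 genes, Tap1 and Psmb9 (r 0.739 and 0.712). Each chain and Tapbp passed with 3 under the stricter rule of both sides, so these counts are not directly comparable. Its pairs with Psmb8, B2m, H2-D1, H2-K1 and Tap2 no longer passed (r 0.580 to 0.657, adjusted permutation p 0.0908 to 0.171). Tap1 with Psmb9 then had 0.682 (adjusted permutation p 0.167), Tap1 with Psmb8 0.655 (adjusted permutation p 0.569) and Psmb8 with Psmb9 0.710 (adjusted permutation p 0.421). Exons of all GENCODE transcripts of Tap1 together cover 38.1% of the exon length of Psmb9 on the other strand. The 2 transcripts that were counted overlap by only 212 bases. Per the paper the sequencing was stranded, but whether the counting used strand is not given. The part of shared reads in the r of Tap1 and Psmb9 was not tested. The chains of the pump were less alike, with an r of 0.554 between Tap1 and Tap2 (adjusted permutation p 0.350). Psmb10 had a median r of 0.380 to the other genes, a highest r of 0.50 with Psmb9 (adjusted permutation p 0.552), and no pair under 0.05. These values hung on LD 33, in which Psmb10 was low. Without LD 33 and ADV 35 its r ran from 0.40 with Tapbp to 0.576 with Psmb8, with a median of 0.495 and again no pair under 0.05, and within ADV mice it had r of 0.641 with H2-K1 and 0.676 with H2-D1.

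**Figure D4:**
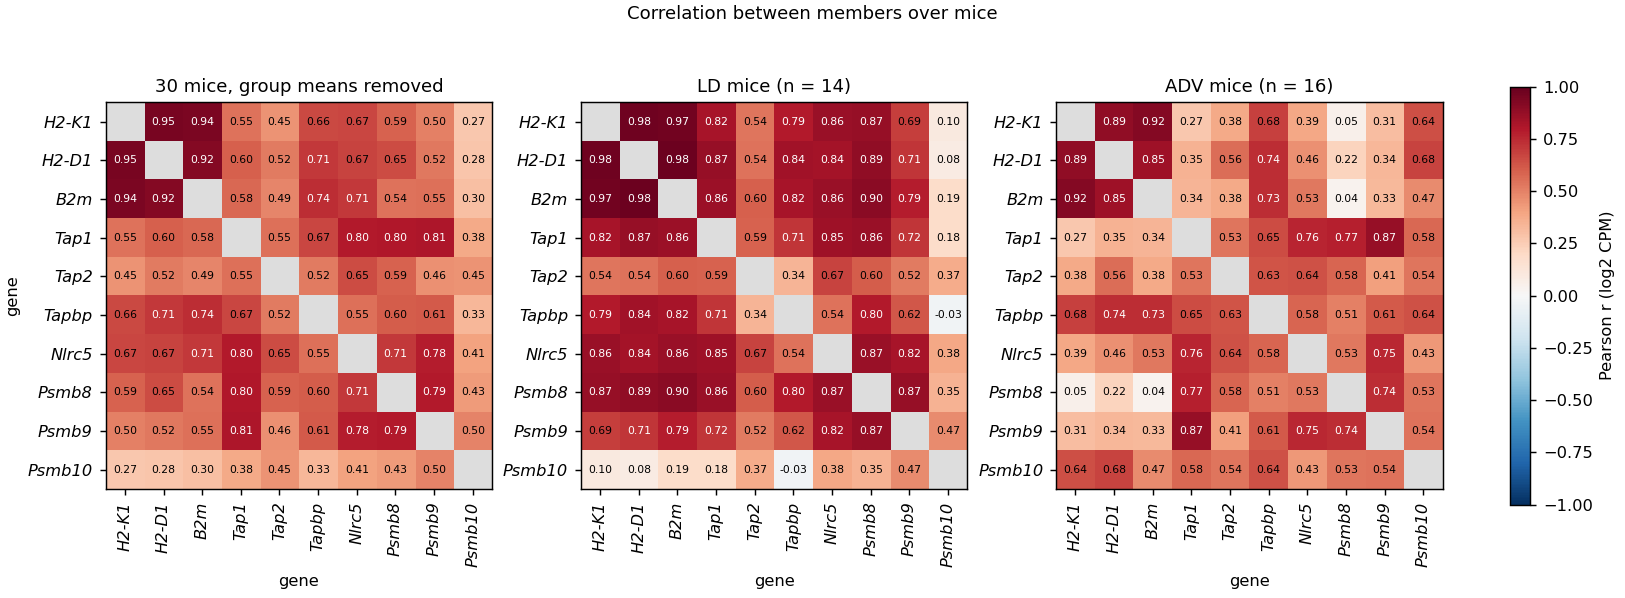
Pearson r of log2 CPM for each pair of the 10 genes over the 30 mice with group means removed, over the 14 LD mice and over the 16 ADV mice. The block of H2-K1, H2-D1 and B2m is dark in all 3 panels, Psmb10 is the palest row in the first 2, and Psmb8 is nearly white against the chains in ADV mice.

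The r of Psmb8 with the chains was high in LD mice and low in ADV mice. With H2-K1, H2-D1 and B2m it was 0.870, 0.888 and 0.903 in LD mice and 0.0517, 0.222 and 0.0386 in ADV mice, with permutation p of the difference, unadjusted, of 0.00134, 0.00278 and 0.00175. H2-K1 and Nlrc5 differed in the same direction, with an r of 0.862 in LD mice and 0.390 in ADV mice (unadjusted permutation p of the difference 0.00263). Among the 45 pairs 10 had an unadjusted p of the difference under 0.05, these pairs are singled out after their values were seen, and no adjustment over all genes was made. Without LD 33 and ADV 35 the r of Psmb8 with the chains was 0.812, 0.841 and 0.860 in LD mice and -0.119, 0.0608 and -0.273 in ADV mice, and 12 pairs had an unadjusted p of the difference under 0.05.

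The genes nearest to each member were named by the highest r over the 30 mice. After the other chains, H2-K1 was nearest to H2-DMb1, a class II loading gene (r 0.843), Laptm5, a lysosomal protein of leukocytes (0.834), and the class I gene H2-Q4 (0.809). H2-D1 was nearest to Laptm5 (0.885), the complement gene C1qc of macrophages (0.857) and Unc93b1 (0.846), and B2m to H2-DMb1 (0.818), H2-Q4 (0.815) and Cfb (0.804). Tapbp kept like company, with H2-DMb1 (0.801), C1s1 (0.770), Gpsm3 (0.742) and Selplg (0.740) above B2m. Laptm5, C1qc and H2-DMb1 are also in the leukocyte, macrophage and class II marker lists used below.

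The other group had other neighbours. Nlrc5 was nearest to the interferon-induced GTPases Gbp4 (0.848), Gbp3 (0.847) and Gbp7 (0.80), with the checkpoint ligand Cd274 (0.839) and Parp14 (0.799). Psmb9 was nearest to Gbp2 (0.854), Cd274 (0.844), Iigp1 (0.829), Irgm2 (0.828) and Gbp7 (0.818), with Tap1 at rank 8. Tap1 was nearest to Gbp2 (0.814), ahead of Psmb9, Cd274 (0.808), Iigp1 (0.804) and Psmb8. Without LD 33 and ADV 35 the r of Psmb9 with its 5 neighbours was 0.705 to 0.765, that of Tap1 0.655 to 0.747 and that of Nlrc5 0.762 to 0.838, with Gbp2, Gbp2 and Gbp4 still the nearest among these. Psmb8 was nearest to Tap1 and Psmb9, then to Irf7 (0.771), H2-T23 (0.723) and Ly6e (0.719), an order that turned without LD 33 and ADV 35, with Irf7 at 0.743, Psmb9 at 0.710, Ly6e at 0.675, Tap1 at 0.655 and H2-T23 at 0.572. Tap2 had weaker neighbours, led by Rigi (0.669), Nckap1l (0.619), Jak3 (0.618), Myo9b (0.616) and Sp110 (0.615). Psmb10 was nearest to Psme1 (0.688), a subunit of the proteasome activator, and then to Parp10 (0.665), Zfp710 (0.663), Amdhd2 (0.661) and Trim21 (0.626). The mean of all 10 genes was nearest to Gbp2 (0.843), Irf7 (0.825), Gbp3 (0.819), Cd274 (0.810), Mpeg1 (0.803), H2-T23 (0.803), Nckap1l (0.802), H2-DMb1 (0.80), Uba7 (0.799) and Laptm5 (0.798).

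Because whole muscle was sequenced, fewer cells of a type and less RNA per cell cannot be told apart, and marker lists of 10 cell types were set beside the 10 genes. The summed level of 6 leukocyte markers was 19.3 to 53.5 CPM in LD mice (median 28.1) and 17.3 to 35.7 CPM in ADV mice (median 24.6), with overlap of the groups and its highest value in LD 33 (two-sided permutation p 0.253). Of the 100 relations between a gene and a list, 26 had an adjusted permutation p under 0.05, adjusted over 12031 genes with each list. The leukocyte level passed with 8 of the 10 genes, beside 4.15% of all genes, and was closest to H2-D1 with an r of 0.866 (rho 0.831, adjusted permutation p 0.00129), 0.960 within LD mice and 0.715 within ADV mice. Tap2 (r 0.528, adjusted permutation p 0.0603) and Psmb10 (r 0.285, adjusted permutation p 0.501) did not pass. After removal of the leukocyte level the median r of the 45 pairs was 0.268, with 43 pairs positive and a highest r of 0.863. Without LD 33 and ADV 35, 18 of the 100 relations passed, and the leukocyte level passed with 6 genes, no longer with Tap1 (r 0.522, adjusted permutation p 0.106) and Psmb8 (r 0.481, adjusted permutation p 0.151), while H2-D1 had an r of 0.816.

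**Figure D5:**
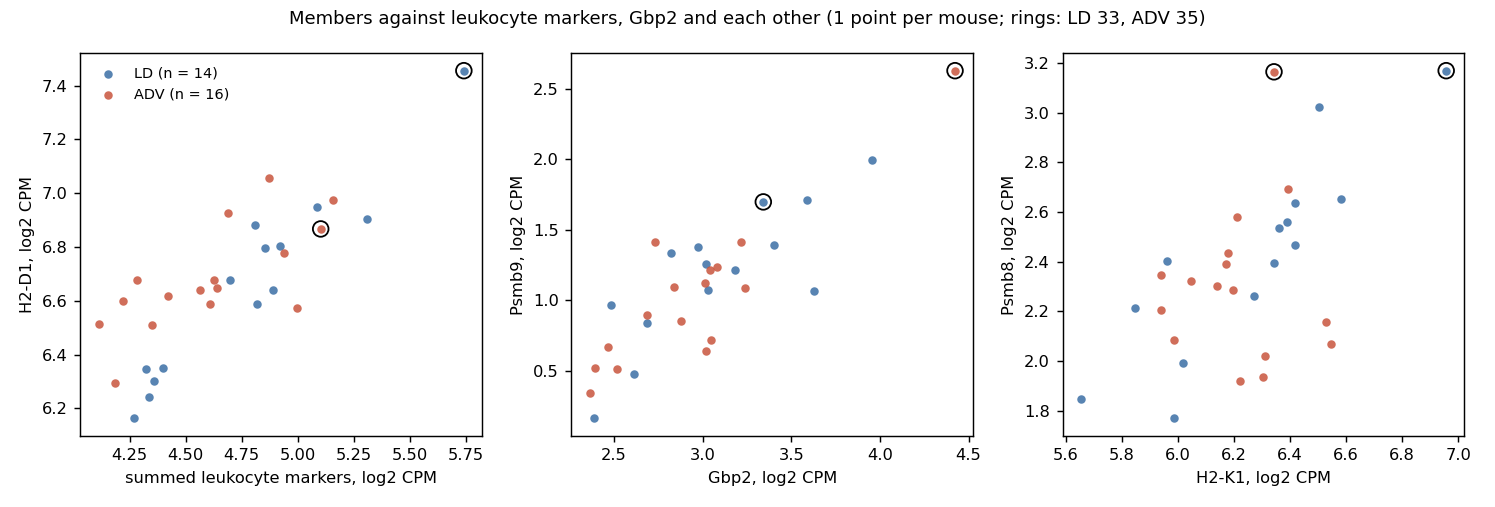
One point per mouse (LD n = 14, ADV n = 16, rings around LD 33 and ADV 35), for H2-D1 against the summed leukocyte markers, Psmb9 against Gbp2 and Psmb8 against H2-K1, all as log2 CPM. H2-D1 rises with the leukocyte level in both groups (r 0.866 with group means removed), and in the last panel the LD points rise together while the ADV points do not.

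Lists of narrower cell types divided the 10 genes. Markers of class II antigen-presenting cells, led by Cd74 (mean 46.5 FPKM), ranged from 75.7 to 535 CPM in LD mice and from 88.9 to 216 CPM in ADV mice, and passed with 7 genes (5.15% of all genes), with r from 0.103 for Psmb10 to 0.831 for H2-D1, and with 4 genes without LD 33 and ADV 35, the chains and Tapbp. Macrophage markers, led by Lyz2 (mean 50.5 FPKM), passed with 4 genes (3.39% of all genes), namely the chains and Tapbp, and with H2-D1 alone (r 0.661) without those mice. Fibroblast markers, led by Dcn (mean 242 FPKM), passed with the same 4 (5.59% of all genes), and with 3 of them without those mice. Adipocyte markers, led by Adipoq (mean 19.9 FPKM), passed with the 3 chains (2.26% of all genes), and with the chains and Tapbp without those mice. For Tap1, Psmb8, Psmb9 and Nlrc5 the r with the adipocyte level was 0.0177 to 0.0803. T and NK cell markers, led by Cd3g (mean 0.105 FPKM), were near the detection limit, with 0 of 14 over a mean of 20 reads and 0.335 to 3.37 CPM in all of them together, the highest in LD 31. They passed with 0 genes (0.0249% of all genes), with r from 0.286 for Psmb10 to 0.661 for Tap1. The lists of endothelium (led by Pecam1, 2.91% of all genes), muscle fibers (led by Tnnt3, 15.1%), B and plasma cells (led by Ighm, 0.382%) and Schwann cells (led by Mbp, 0.199%) also passed with 0 genes, and their r ran from -0.365 to 0.365. Among the 10 summed levels, that of B and plasma cells had the lowest permutation p between the groups (244 CPM median in LD mice and 184 CPM in ADV mice, p 0.00742, adjusted over the 10 lists 0.0742). The part of these cell types in the variation of the 10 genes was not tested.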

How the data were processed

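Gastrocnemius RNA of 14 LD and 16 ADV mice was compared, 1 library per mouse, with groups taken from the sample labels. Per the methods and the processing notes, the authors trimmed the 101-bp paired-end reads, mapped them to GRCm39 with STAR 2.7.10a, removed reads with a mapping quality under 10 and counted exons of 57186 UCSC known canonical transcripts with HOMER 4.11. The authors deposited estimated counts, in which each mate counts as 0.5 read so that 14.8% are not whole, and FPKM values made by the authors from the same counts, which were recomputed to within 5.0e-04 FPKM. Per the paper the sequencing was stranded, but the strand option of the counting is not given in the sources used here. Exons of a GENCODE vM39 gene on the other strand, over all its transcripts, covered 30.3% of H2-K1, 34.2% of H2-D1, 29.8% of Tapbp (a further gene 10.9%) and 38.1% of Psmb9.

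For each of 56951 symbols (232 on several rows) the longest row averaging over 20 reads was kept, and tests covered the 12030 genes that also averaged over 0.5 FPKM. Rounded counts were compared with edgeR 4.0.16 (R 4.3.3, TMM, quasi-likelihood F test, Benjamini-Hochberg over all tested genes, FDR under 0.05). DESeq2 1.42.0, limma 3.58.1 on log2(FPKM + 0.1) and log2(FPKM + 1), and the Wilcoxon test were alternatives, with other size factors and filters, covariates for a clock gene score and for leukocyte and endothelial markers, a GC correction, a replicate block and each library left out. Correlations over mice used log2 CPM with group means removed and 100000 permutations within groups (numpy 2.4.6, scipy 1.17.1). Adjustment over the 45 pairs and the 100 relations was planned, and adjustment over all tested genes was used instead. The tests were checked on simulated data. The smallest p these permutations can give is 1e-05. P-values take the mouse as the unit and judge differences or correlations against the variation between mice. The members had 50.5 to 2313 reads on average, with 18875468.5 to 28512674 reads on exons per library.

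Genes named were the 10 members, list genes with an FDR under 0.05, a fixed set of pathway genes, the 5 genes nearest to each member, the 10 nearest to their mean and the most abundant gene of each marker list. A result of 1 pathway gene is not reported here. H2-M3 and H2-Q1 were named after their values were seen. Members and lists were chosen with earlier results of these data known. Leaving out LD 33 with ADV 35 in the pair, marker and nearest gene correlations, the fit without the block on 28 libraries and the settings for pathway lists were chosen after seeing the data. Promoter windows came from RefSeq (GRCm38.p6), whose coordinates are not those of the counts. The study's other measurements were not analysed here.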

Additional observations from a re-analysis of the deposited data

How the results depend on the processing

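The count of 0 called among the 9 tested genes held under all 46 alternatives, although with the clock gene covariate 0 of all tested genes passed. The lowest FDR of H2-D1 was 0.0850, with the leukocyte covariate (log2 fold change 0.14). Signs of estimates near 0 turned. With the leukocyte covariate H2-K1 was at 0.043, B2m at 0.074, Tap1 at 0.053, Tap2 at 0.019, Tapbp at 0.031 and Psmb9 at 0.024. With the endothelial covariate H2-K1 was at 0.0048, B2m at 0.0086 and Tapbp at 0.0073, and with the clock gene score B2m was at 0.066 and Tapbp at 0.050. With the GC correction H2-D1 was at -0.067 and B2m at 0.061. In the Wilcoxon test the median of H2-D1 was lower in ADV mice by a difference of -0.603 FPKM. With each library left out H2-D1 ran from -0.030 to 0.086, B2m from -0.069 to 0.023, Tap2 from -0.049 to 0.0059 and Tapbp from -0.061 to 0.0066. The causes were not tested.

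Of the pathway lists 2 of 60 genes passed, and 4 with the endothelial covariate, 0 with the clock gene score, 1 with the GC correction and 7 with DESeq2. With a filter of 100 reads 5 of the 46 list genes then tested passed, beside 1396 of all 9606 genes. With each library left out 2 to 6 passed, 6 without ADV 35 and 6 without ADV 26. Over all genes 1301 calls became 602 with the GC correction, 830 with the endothelial covariate and 0 with the clock gene score (1316 at an unadjusted p under 0.05), and library size alone changed 675 higher and 626 lower calls to 778 and 470, limma on log2(FPKM + 0.1) to 860 and 448.

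Label numbers shared by both groups (14) did not pair the mice. The correlation of deviations ran from -0.26 to 0.43, 6 were over 0.1 and 3 mice correlated best with their own number. With the replicate block on the 28 libraries 497 genes passed, and 616 without it on the same libraries, where H2-D1 was at -0.024. None of the 9 genes passed in either fit, and 1 pathway gene (Psmb5) passed with the block.

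The median r of the 45 pairs was 0.546 to 0.624 with each library left out and 0.536 without LD 33 and ADV 35. Of 43 alternatives 42 kept it within 1 SD, and it was 0.268 with the leukocyte level removed. Psmb9 and Nlrc5 had the fewest reads, and differences inside the intervals given for the 10 genes were not detectable with this spread between mice.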
